A study of Papio anubis with 60 samples.

Results

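In the olive baboon (Papio anubis), 768 H3K4me3 domains lay inside H3K9me3 peaks in both embryonic stem cells (ESC) and induced pluripotent stem cells (iPSC). They were 2.50% of the 30730 H3K4me3 domains on chromosomes 1 to 20. A domain was made by joining the H3K4me3 peaks of both cell types within 1 kb and was kept where it was at least 2 kb wide. It was a member where H3K9me3 peaks covered at least 50% of its length in ESC and at least 50% in iPSC, and where no ESC H3K27me3 peak overlapped it. The H3K9me3 condition alone held for 962 domains, and 194 of these (20.2%) overlapped an ESC H3K27me3 peak and were left aside. The domains were thus selected on H3K9me3 cover in both lists, the absence of ESC H3K27me3 and the H3K4me3 outline, and these are given as a description. The H3K27ac lists and the iPSC H3K27me3 list took no part in the choice.

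The data are chromatin immunoprecipitation with sequencing (ChIP-seq) for 4 histone marks. The ESC lines were B4 and B15 and the iPSC lines 160-2 and M14939#3, all kept on feeder cells. Each cell type and mark, and each input, had 3 replicates of each of 2 lines, which makes 60 libraries in 10 groups, 12 of them inputs. Each library started from 50000 cells whose chromatin was digested with micrococcal nuclease. The labels give no treatment, genotype or passage. Each cell type is represented by its own lines, so cell type and line cannot be told apart.

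There were 8 peak lists, each holding a mark in a cell type, with no replicate lists. No difference can be set against a spread between lines or cultures, so no p-value is given. Shares carry 95% Wilson intervals, which cover counting error only, and neighbouring domains are not independent. The depth behind the lists is unknown. On chromosomes 1 to 20 the ESC lists covered 5.20% (H3K4me3), 3.95% (H3K27ac), 2.08% (H3K27me3) and 8.46% (H3K9me3) of the sequence. The iPSC lists covered 5.42%, 2.10%, 3.47% and 6.96%, so the iPSC list was the smaller one for H3K27ac and the larger one for H3K27me3. The sources used here do not name the genome build, so coordinates are as in the peak lists and the regions were not joined to genes.

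As background, H3K4me3 is placed at active and poised promoters by the SET1 and MLL methyltransferase complexes. H3K9me3 is written by enzymes such as SETDB1 and the SUV39H proteins and is bound by HP1 proteins; in pluripotent cells it covers pericentromeric repeats, many transposable elements, zinc finger gene clusters and the silent allele of imprinted control regions. H3K27me3 is the product of Polycomb repressive complex 2 and often shares promoters with H3K4me3 in stem cells. H3K27ac marks active promoters and enhancers and cannot sit on the same lysine as H3K27me3. A peak list from a cell population does not show whether marks share a nucleosome, an allele or a cell.

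The member domains were of ordinary width, but their H3K4me3 was patchy and its peaks were low. Width ran from 2000 to 36266 bp with a median of 2686.5 bp, against 2769 bp for the 17593 other domains free of ESC H3K27me3, and 40 members reached 5 kb. H3K9me3 covered a median of 90.1% of a member in ESC and 82.1% in iPSC, and 203 members were covered over their whole length in both. ESC H3K4me3 peaks covered a median of 43.4% of a member and iPSC peaks 33.1%, against 51.8% and 56.6% in the other domains free of ESC H3K27me3. The highest H3K4me3 fold enrichment in a domain, the authors' value for a peak, had a median of 4.35 in the 766 members with an ESC peak and 4.28 in the 739 with an iPSC peak. In the other domains free of ESC H3K27me3 these medians were 5.51 and 5.73.

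Near the 50% limit, the domain chr12:93285522-93287813 was inside with 67.2% H3K9me3 cover in ESC and 50.09% in iPSC. Next to it inside the limit were chr15:41092250-41095862 (68.6% and 50.2%) and chr19:38097584-38100359 (84.7% and 50.2%). Just outside were chr7:49037944-49040352 (51.8% and 49.98%), chr8:4855608-4857632 (57.8% and 49.98%) and chr10:89796008-89798360 (49.9% and 53.7%).

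H3K9me3 formed a raised zone of several kb around the H3K4me3 summit. At the summit of the strongest ESC H3K4me3 peak, 90.2% of 766 members lay under an ESC H3K9me3 peak, and 20.6% still did so 10 kb upstream in coordinate order and 19.3% 10 kb downstream. The same distances gave 7.27% and 6.95% around the other 29861 domains. The iPSC H3K9me3 list had the same shape around these ESC summits, with 86.0% at the summit and 17.4% and 16.7% at 10 kb. iPSC H3K27me3 was also centred there, at 66.1% of members against 16.3% of other domains. It was down to 37.3% and 39.8% of members at 0.5 kb and to 9.53% and 9.79% at 5 kb. At the strongest iPSC H3K4me3 summits (n = 739) it stood at 57.4% of members. ESC H3K27ac lay at the ESC summit of 30.7% of members and of 57.0% of the others.

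**Figure D1:**
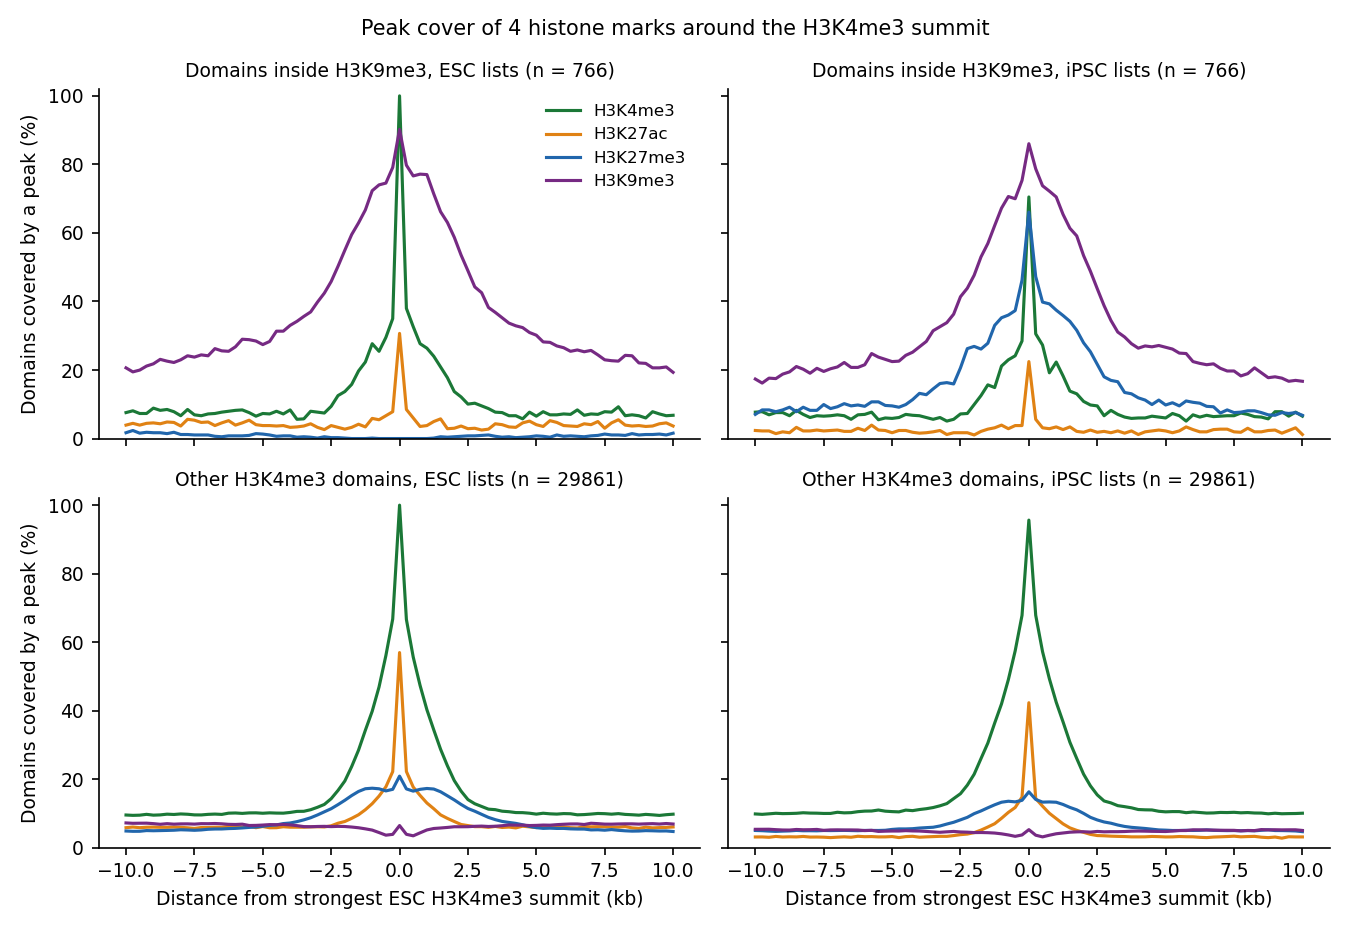
Percent of domains under a peak of each mark (vertical axis) against distance in kb from the strongest ESC H3K4me3 summit (horizontal axis), for members (n = 766) and all other domains (n = 29861). H3K9me3 stands at 90.2% of members at the summit in ESC and falls on both sides, and iPSC H3K27me3 peaks at 66.1%. The H3K9me3 height in members is largely set by the rule that chose them.

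H3K27ac, the mark of active promoters and enhancers, was present on fewer of these domains than on other H3K4me3 domains. An ESC H3K27ac peak overlapped 366 of 768 members (47.7%, interval 44.1 to 51.2), against a background of 78.9% over all domains. Among the other domains free of ESC H3K27me3 the share was 91.4% (16082 of 17593). An iPSC H3K27ac peak overlapped 288 members (37.5%, 34.1 to 41.0), against a background of 66.4% and against 79.7% of the others free of ESC H3K27me3. Both intervals lie below the shares of the other domains.

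H3K27ac was called in both cell types on 258 members (33.6%, background 64.3%) and in at least 1 cell type on 396 (51.6%, background 81.0%), which left 372 with none. It was called in ESC only on 108 (14.1%, background 14.6%) and in iPSC only on 30 (3.91%, background 2.03%). The share acetylated in ESC only was thus close to that of all domains, and the deficit lay in the domains acetylated in both. The iPSC H3K27ac list covers less of the genome, and its part in the ESC-only count was not tested. These shares move with the limits: with H3K9me3 over at least 25% in both, ESC H3K27ac was on 64.2% and iPSC H3K27ac on 52.9% of members, and with at least 75% on 27.5% and 21.5%. Counted only where it covered at least 10% of the domain, iPSC H3K27ac was on 22.1%. The backgrounds above count any overlap of 1 bp and do not apply to that limit. Over all domains the median cover by iPSC H3K27ac was 9.16%.

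Acetylation went with lower H3K9me3 cover and higher H3K4me3 among the members. The 258 members acetylated in both had a median H3K9me3 cover of 73.2% in ESC and 67.7% in iPSC, and the 372 acetylated in neither had 100% in each. The median ESC H3K4me3 fold was 4.93 in the first set and 3.90 in the second. Of the 203 members wholly under H3K9me3 in both cell types, 11.8% had an ESC H3K27ac peak and 9.85% an iPSC peak, against 60.5% and 47.4% of the other 565. Acetylated members thus tended to have part of their length free of H3K9me3.

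Where H3K27ac occurred, it lay on the H3K4me3 peaks and less often under H3K9me3 than the domain as a whole. In the members with an ESC H3K27ac peak, 86.0% of the acetylated base pairs lay in ESC H3K4me3 peaks, which covered 47.9% of those domains. In the same domains 65.6% of the acetylated base pairs lay in ESC H3K9me3, which covered 75.3%. In the members with an iPSC H3K27ac peak, iPSC H3K9me3 held 63.8% of acetylated base pairs against a cover of 71.9%. Neither feature was particular to the members. Over all non-members, 87.3% of the ESC acetylated base pairs lay in ESC H3K4me3 peaks, which covered 61.3% of the length. There 3.63% lay in ESC H3K9me3, which covered 5.51%, and in iPSC 3.75% lay in H3K9me3 that covered 4.62%. H3K4me3 showed no such shift, since 87.6% of its ESC base pairs in all members lay in H3K9me3 that covered 84.7% of the length, and 79.1% against 81.2% in iPSC.

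Members with weak H3K4me3 seldom bore H3K27ac, and members with strong H3K4me3 came closer to other domains. By the highest ESC H3K4me3 fold, the ESC H3K27ac share of members was 28.2% below a fold of 4 (n = 287), 52.0% from 4 to 5 (n = 248), 60.1% from 5 to 6 (n = 143), 76.1% from 6 to 8 (n = 67) and 90.5% from 8 up (n = 21, interval 71.1 to 97.3). Domains with no H3K9me3 peak and no ESC H3K27me3 peak had 87.1% in the lowest class, 91.2% from 4 to 5, 94.6% from 6 to 8 and 94.0% in the highest. The gap was widest in the lowest class, and in the highest class the member interval contained the value of the other domains. By iPSC fold, the iPSC H3K27ac share of members went from 18.4% below 4 (n = 304) to 72.3% from 6 to 8 (n = 83), against 65.8% and 84.5%. From 8 up it was 76.9% (n = 13, interval 49.7 to 91.8) against 88.6%. In contrast, the iPSC H3K27me3 share of members stayed between 95.3% and 100% in all 5 iPSC fold classes. In domains with no H3K9me3 peak and no ESC H3K27me3 peak that share rose with fold, from 2.32% below 4 to 15.0% from 6 to 8 and 39.7% from 8 up. Width gave a smaller gradient, with ESC H3K27ac on 39.5% of members under 2.5 kb and on 60.5% of those of 4 kb or more.

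**Figure D2:**
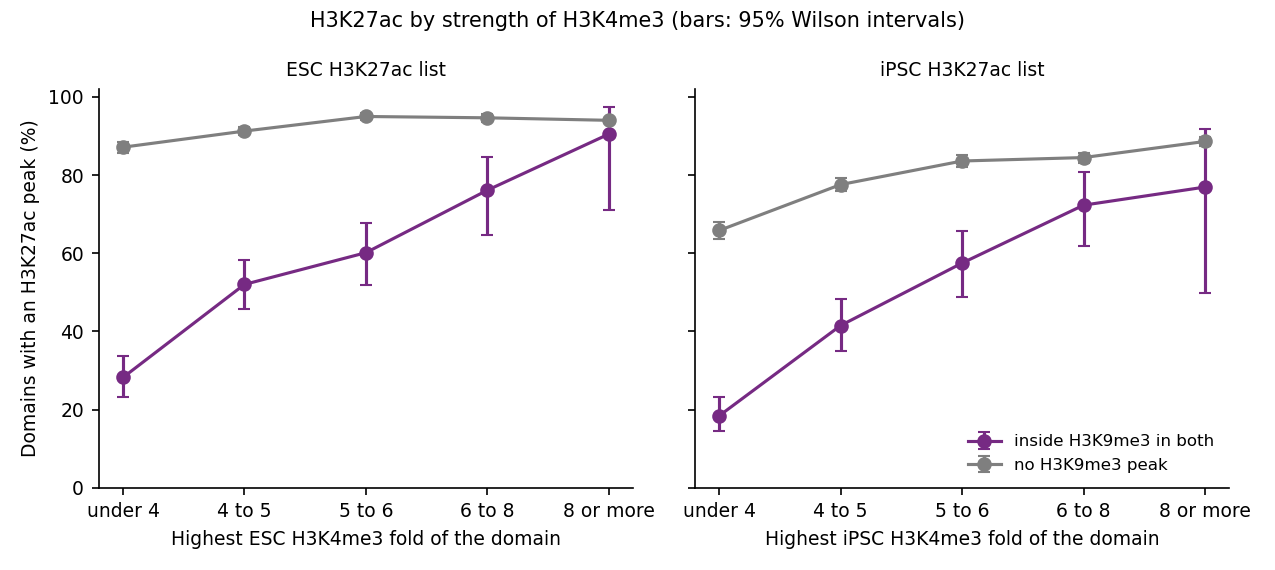
Percent of domains with an H3K27ac peak (vertical axis, bars show 95% Wilson intervals) by class of the highest H3K4me3 fold enrichment in the same cell type (horizontal axis), for members and for domains with no H3K9me3 and no ESC H3K27me3 peak. In ESC the members go from 28.2% to 90.5% and the domains without H3K9me3 from 87.1% to 94.0%.

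Nearly every member bore an H3K27me3 peak in iPSC, the Polycomb mark that the rule had excluded in ESC. An iPSC H3K27me3 peak overlapped 749 of 768 members (97.5%, interval 96.2 to 98.4), against a background of 46.5%. The share was 24.4% among the other domains free of ESC H3K27me3. iPSC H3K27me3 covered at least 50% of the length in 365 members (47.5%, background 10.9%), against 0.489% of the others free of ESC H3K27me3. The median cover was 48.3% of a member, and the highest fold in a member had a median of 3.00 and a range of 2.11 to 4.57.

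The absence of H3K27me3 in ESC is a condition of the choice, so the contrast between the cell types is partly set by it. Among all 962 domains inside H3K9me3 in both cell types, before that condition, 97.8% bore an iPSC H3K27me3 peak and 20.2% an ESC one, against backgrounds of 46.5% and 40.3%. The iPSC list has more H3K27me3 peaks than the ESC list, 131632 against 51150 on these chromosomes, and its part in this contrast was not tested. With peaks held to a stricter q limit the share of members with iPSC H3K27me3 was 89.5%, against 36.1% of all domains called that way.

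iPSC H3K27me3 followed iPSC H3K9me3 cover across the domains. Over all domains its share was 35.8% where iPSC H3K9me3 was absent, 71.2% at a cover up to 25%, 87.2% from 25% to 50%, 95.6% from 50% to 75% and 99.1% above. Among domains free of ESC H3K27me3 the first and last of these were 15.9% and 99.1%. In the ESC lists, over all domains, ESC H3K27me3 stood at 37.9% without ESC H3K9me3 and at 53.0%, 41.2%, 31.7% and 16.3% in the same classes of cover. At high H3K9me3 cover the other repressive mark was thus nearly always called in iPSC and seldom in ESC. Within the members, 97.5% of the base pairs under iPSC H3K27me3 also lay under iPSC H3K9me3, which covered 81.2% of the length.

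Domains with H3K9me3 in a single cell type lay between the members and the rest. With H3K9me3 over 50% in ESC only (n = 269), 75.8% had ESC H3K27ac, 58.7% iPSC H3K27ac and 78.8% iPSC H3K27me3. With it in iPSC only (n = 163), the shares were 87.1%, 49.1% and 93.9%. Most of these domains had some H3K9me3 in the other cell type too, below the limit: 247 of the 269 in iPSC and 116 of the 163 in ESC. H3K27ac was thus lowest where H3K9me3 covered at least 50% in both, and in the second class the iPSC share was well below the ESC share. The 194 domains inside H3K9me3 that did bear ESC H3K27me3 had 37.6%, 27.3% and 99.0%.

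**Figure D3:**
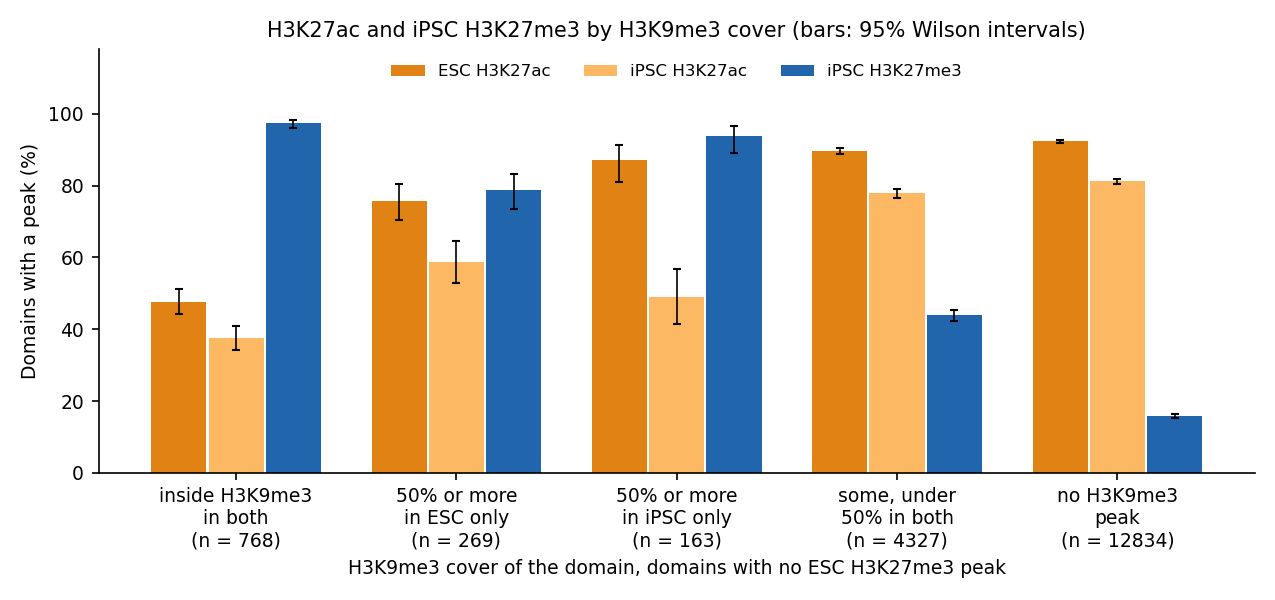
Percent of domains with an ESC H3K27ac, iPSC H3K27ac or iPSC H3K27me3 peak (bars with 95% Wilson intervals) by H3K9me3 class. Members have 47.7%, 37.5% and 97.5%, and domains with no H3K9me3 peak and no ESC H3K27me3 peak have 92.4%, 81.2% and 15.8%.

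H3K4me3 was spread more widely over the members in ESC than in iPSC. ESC cover exceeded iPSC cover in 529 members (68.9%, interval 65.5 to 72.1), against a background of 42.0%. It did so in 66.3% of the domains with H3K9me3 in iPSC only, 55.4% of those with it in ESC only and 38.2% of those with none. In the 194 domains inside H3K9me3 in both that bore ESC H3K27me3, the share was 49.0%. The lean to ESC was thus not particular to the members, but not every class under H3K9me3 had it. An ESC H3K4me3 peak was present on 766 members (background 99.7%) and an iPSC peak on 739 (background 99.6%). The strongest peaks of the cell types also lay further apart, with a median summit distance of 603 bp against 166 bp in other domains. Within 200 bp of each other were 36.1% of member summit pairs and 51.5% of the others.

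**Figure D4:**
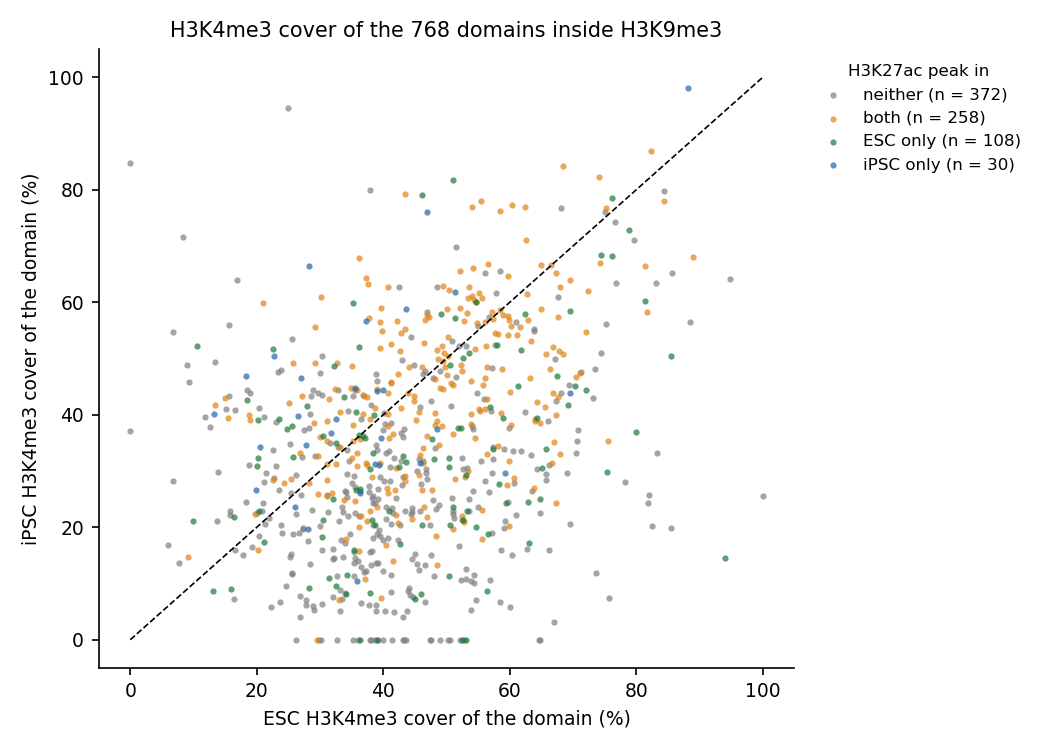
ESC H3K4me3 cover (horizontal axis, percent of the domain) against iPSC H3K4me3 cover (vertical axis) for the 768 members, coloured by where H3K27ac was called; the dashed line marks equal cover. Of the points, 529 lie below the line, and the 29 members with no iPSC H3K4me3 peak lie at 0.

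The 29 members without an iPSC H3K4me3 peak were weakly marked in ESC as well. Their median highest ESC fold was 3.39. An ESC H3K27ac peak lay on 5 of them (17.2%), against 47.7% of all members and a background of 78.9%. An iPSC H3K27ac peak lay on 1 (3.45%), against 37.5% and a background of 66.4%. All 29 had iPSC H3K27me3, close to the 97.5% of all members (background 46.5%). At the other end, the 19 members without iPSC H3K27me3 were mostly acetylated, 17 in ESC (89.5%) and 13 in iPSC (68.4%). These shares were near the backgrounds of 78.9% and 66.4%. The H3K9me3 of these 19 was lower, with a median cover of 69.7% in ESC and 63.1% in iPSC. It lay in short stretches, with a median of 3.06 kb in iPSC.

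Members in longer ESC H3K9me3 stretches bore ESC H3K27ac less often, while their median H3K4me3 fold lay between 4.25 and 4.40. Joined within 3 kb, the H3K9me3 stretch over a member had a median length of 9.29 kb in ESC and 7.25 kb in iPSC. ESC H3K27ac was found on 69.1% of members in ESC stretches under 5 kb (n = 191), 52.8% from 5 to 10 kb (n = 218), 41.1% from 10 to 20 kb (n = 219), 21.4% from 20 to 50 kb (n = 103) and 18.9% above (n = 37). The median ESC H3K4me3 fold in these classes was 4.28, 4.40, 4.38, 4.31 and 4.25. By iPSC stretch, in the same classes, iPSC H3K27ac was on 49.4%, 39.4%, 34.9%, 15.8% and 2.27% of members, the last being 1 of 44. ESC H3K27ac by iPSC stretch did not keep this order, with 64.3%, 49.6%, 38.3%, 13.2% and then 29.5% at 50 kb or more. Stretch length went with H3K9me3 cover of the domain. The 203 members wholly under H3K9me3 in both had a median ESC stretch of 13.7 kb, and the other 565 had 7.9 kb. A relation of stretch length to H3K27ac apart from cover was not tested.

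Of the 6 widest members, 5 had iPSC H3K27me3 over most of their length, from 67.3% to 99.4%. Among all members 47.5% had iPSC H3K27me3 over most of their length, against a background of 10.9%. iPSC H3K9me3 over most of the length is a condition of the choice and holds for every member. The widest, chr4:53254364-53290629 (36.3 kb), lay wholly under H3K9me3 in both cell types and to 99.4% under iPSC H3K27me3. Its H3K4me3 covered 94.9% in ESC, in 10 peaks, and 64.1% in iPSC, in 37 peaks, with no H3K27ac peak in either. The next, chr7:1290054-1315173 (25.1 kb), had H3K4me3 over 81.9% in ESC and 24.3% in iPSC and iPSC H3K27me3 over 93.9%, also without H3K27ac. Also without H3K27ac were chr5:1409079-1423930 (14.9 kb), chr11:132910034-132922208 (12.2 kb) and chr19:8333148-8341228 (8.08 kb). Among the 6 widest, only chr19:50305979-50314462 (8.48 kb) had H3K27ac, over 5.59% in ESC and 3.48% in iPSC, and its iPSC H3K27me3 and H3K9me3 covered less, 30.7% and 52.1%. ESC H3K4me3 cover exceeded iPSC cover in each of these 6.

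Members with the highest H3K4me3 folds mostly carried some H3K27ac. In at least 1 cell type it was on 51.6% of all members and on 81.0% of all domains. chr19:50305979-50314462 had the highest ESC fold, 13.6, with 7.87 in iPSC. It was followed in ESC by chr11:132899962-132902593 (13.5), chr2:45531685-45536260 (12.1), chr6:71518823-71521949 (12.0) and chr20:55465107-55467569 (11.1), of which the last had no H3K27ac. In iPSC the highest were chr1:117477198-117480311 (10.9), chr11:16854120-16858118 (10.4), chr11:132899962-132902593 (9.48), chr14:124253284-124258712 (9.29) and chr2:45531685-45536260 (9.20). The chr1 domain had H3K27ac in ESC only, and the other 4 had it in both. chr14:124253284-124258712 combined these folds with iPSC H3K27me3 over 92.1% of its length and full iPSC H3K9me3 cover.

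The member with the most acetylated base pairs, summed over both lists, was chr8:4850058-4854584 (4064 bp). H3K27ac covered 50.2% (ESC) and 39.5% (iPSC) of its length, beside H3K9me3 cover of 87.3% and 57.4%. It lay beside chr8:4855608-4857632, the domain just outside the limit named above, which was acetylated over 52.0% and 34.0%. Next by base pairs were chr7:139016391-139022875 (29.6% and 30.8%), chr7:79212721-79217118 (34.7% and 50.1%), chr12:82288415-82292609 (37.4% and 44.5%) and chr8:45288278-45293073 (46.0% and 19.3%). All 5 bore iPSC H3K27me3, over 21.6% to 58.3% of their length, and 97.5% of all members bore it. No H3K27ac peak lay on chr8:140238029-140243208 and chr13:12821519-12827921, which had iPSC H3K27me3 over 88.6% and 84.4% and H3K9me3 over 100% in both cell types. High iPSC H3K27me3 cover did not always go with this, since chr14:124253284-124258712 (92.1%) had H3K27ac over 10.3% in ESC and 2.87% in iPSC.

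Chromosome 19 held the largest share of members, and those were rarely acetylated. It had 66 members among 1195 domains (5.52%, interval 4.36 to 6.97), or 1.28 per Mb, and H3K9me3 covered 16.2% of it in ESC and 15.6% in iPSC. Chromosomes 3 (4.06%), 5 (3.78%) and 8 (3.52%) followed, and chromosome 10 had the lowest share, 17 of 1575 (1.08%, 0.675 to 1.72). ESC H3K27ac was found on 8 of the 66 members of chromosome 19 (12.1%) and iPSC H3K27ac on 5 (7.58%), against 51.0% and 40.3% of members elsewhere. The other chromosome 19 domains free of ESC H3K27me3 had 89.6% and 72.1%. Median H3K9me3 cover of the chromosome 19 members was 100% in both cell types, in ESC stretches of 19.4 kb against 8.57 kb elsewhere.

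**Figure D5:**
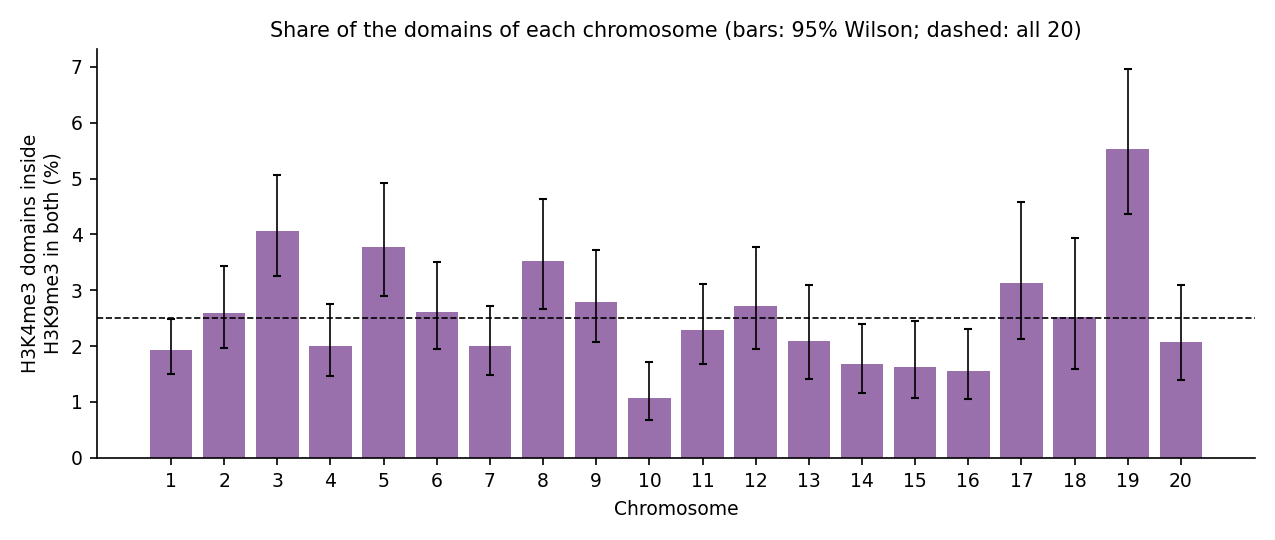
Percent of the H3K4me3 domains of each chromosome that were members, with 95% Wilson intervals. Chromosome 19 is highest at 5.52% and chromosome 10 lowest at 1.08%.

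Members were also more frequent near the ends of chromosomes, taken as the first base and the furthest peak end. Within 1 Mb of an end lay 53 members (6.90%, interval 5.31 to 8.92) and 2.73% of other domains. Of these 53, 20.8% had ESC H3K27ac and 13.2% iPSC H3K27ac, and their median H3K9me3 stretch was 31.4 kb in ESC. The members further from an end had 49.7%, 39.3% and 8.68 kb. The members near ends were thus, like those of chromosome 19, in long stretches and seldom acetylated. The H3K27ac share of other domains near ends is not given, so it is open whether this is particular to members.

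Most members stood alone, but a domain next to a member was a member more often than domains at large. Another member lay within 50 kb of 116 members (15.1%, interval 12.7 to 17.8). Counted from each member to the next domain on either side, 154 of 1530 neighbour positions (10.07%) held a member, against 2.50% of all domains. Adjacent members were counted from both sides, so these positions are not independent and no interval is given. Without chromosome 19 the shares were 8.58% and 2.38%. Members within 50 kb of another had ESC H3K27ac in 25.9% of cases, against 51.5% of the single ones. There were 52 clusters, of which 46 were pairs.

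Each of the 3 largest clusters held a single acetylated member, beside an ESC H3K27ac share of 25.9% over all members within 50 kb of another. Smaller clusters differed: among those of 3 members, the one on chromosome 18 had H3K27ac on all 3. Those of 3 members on chromosomes 8 and 19 had it on none. In chr6:173042545-173236246, 6 members spread over 193.7 kb, and 5 of them had no H3K27ac and iPSC H3K27me3 over 44.1% to 81.1% of their length. The sixth, chr6:173164358-173166894, had H3K27ac over 23.5% in ESC and 7.1% in iPSC, the lowest H3K9me3 cover of the cluster (62.1% and 61.8%) and the lowest iPSC H3K27me3 cover (15.8%). In chr19:10730770-10873706, 5 members spread over 142.9 kb, and the acetylated one, chr19:10754449-10756562, had the lowest ESC H3K9me3 cover (68.5%). In chr11:132833735-132922208, whose end lay 38.1 kb from the furthest peak end of the chromosome, the acetylated one of 4 was chr11:132899962-132902593, with the lowest H3K9me3 cover (80.1% and 57.5%), the lowest iPSC H3K27me3 cover (11.9%) and the highest H3K4me3 fold of the cluster.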

How the data were processed

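Libraries of 4 marks and input in baboon ESC and iPSC were the source of 8 deposited peak lists, 1 per cell type and mark. MACS2, SAMtools 1.10, Picard and deepTools were used, per the submitters' processing notes. The sources used here do not name the aligner, the build, the calling limits or how libraries and inputs were combined. The H3K4me3 and H3K27ac lists have the narrow layout and the others the broad layout. Each deposited list holds the fold enrichment (a ratio) of every peak and the −log10 of its p and q, as made by the authors' caller; narrow lists also hold a summit offset. These values were used only to describe, class or filter peaks. The lowest deposited −log10 q was 1.30 in narrow and 1.00 in broad lists. The 16 columns of integer scores and −log10 p were not used.

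Peaks were merged and joined as described with Python 3.11.15, numpy 2.4.6 and pandas 2.3.3, and checked on simulated lists. A mark was present with at least 1 bp of overlap; cover is the percent of the domain under peaks. For firm peaks the least −log10 q was 5 (narrow) or 2 (broad). Regions named are the 6 widest, the 5 with the highest H3K4me3 fold in each cell type, the 5 with the most H3K27ac base pairs, the 3 largest clusters (joined within 50 kb), the 5 of at least 5 kb with the largest iPSC H3K27me3 cover, and 3 on each side of the 50% limit; single cluster members were named after their values were seen. The members, lists and comparisons were chosen with earlier results of these data known. The furthest gene end in the Panubis1.0 gene table and the furthest peak end differed by over 5 Mb on 12 of 20 chromosomes, so the planned gene counts were not run and no sequence is shown.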

Additional observations from a re-analysis of the deposited data

How the results depend on the processing

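The number of members, 768, depends on each limit of the rule. Joining only overlapping H3K4me3 peaks left 26 members, of which 26.9% had ESC H3K27ac, 23.1% iPSC H3K27ac, 96.2% iPSC H3K27me3 and 42.3% another member within 50 kb. Joining within 3 kb gave 1697 members, with ESC H3K27ac on 37.5% and iPSC H3K27ac on 26.5%. A least width of 1 kb gave 3049 members, with 32.1%, 23.1%, 92.2% and 23.6% for the same 4 shares, and one of 4 kb gave 114, with 60.5%, 48.2%, 100% and 1.75%. An H3K9me3 limit of 25% gave 1512 members, with 64.2%, 52.9%, 92.1% and 18.3%, and one of 75% gave 437, with 27.5%, 21.5% and 99.1% for the 3 marks. Firm peaks gave 438 members, with iPSC H3K27me3 on 89.5% and another member within 50 kb of 9.59%; their H3K27ac shares, 44.7% in ESC and 35.8% in iPSC, stood against 71.3% and 55.6% of all domains called that way. Counting a mark only from 10% of the length gave 33.5% for ESC H3K27ac, 22.1% for iPSC H3K27ac and 94.0% for iPSC H3K27me3. All domains were recounted only for firm peaks, so the other joins and widths and the 10% limit have no such background here. Other domains of 4 kb or more free of ESC H3K27me3 had ESC H3K27ac on 98.1%, iPSC H3K27ac on 92.2% and iPSC H3K27me3 on 36.4%. Requiring no H3K27me3 in either cell type left 19 members. Without chromosome 19, 702 members remained, of which 11.7% had another within 50 kb; within 20 kb of another were 7.81% of the 768, and within 100 kb 20.4%. The 3 mark shares stayed within their intervals without chromosome 19. No paired analysis was possible because each cell type and mark has a single list, and for the same reason no library could be left out. The depth behind the lists is unknown, so a missing peak may lie under the calling limit.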
